A study of Homo sapiens with 6 samples.

Results

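The CCAAT/enhancer binding proteins (C/EBPs) are a family of transcription factors, and 5 of the 60240 genes in the count table encode members examined here: CEBPA, CEBPB, CEBPD, CEBPE and CEBPG. They were found by matching Ensembl gene identifiers to these symbols, and each level was compared between wild-type (WT) and LSD1 knockout (LSD1 KO) libraries with the same replicate number. The poly(A) RNA came from HCT116, a human colorectal carcinoma cell line grown in McCoy's 5A medium with serum, with 3 libraries per genotype. LSD1, encoded by KDM1A, removes methyl groups from lysine 4 of histone H3. In the KO cells the gene had been cut with Cas9 and a guide in its first exon, and cells were expanded from single clones. How many clones stand behind the 3 KO libraries is not given in the sources used here, and the labels do not say whether replicates were separate cultures. The methods of the study state in general that its experiments had biological replicates, without describing these libraries. The p-values below that compare libraries within replicate pairs measure the spread of those differences, and those of unpaired fits the spread between libraries. Either spread may be in part technical. The libraries held 25379279 to 29186963 estimated counts, and levels are given as CPM, counts scaled to a common library total. KDM1A itself fell to 27.6 to 29.9 CPM in the KO libraries from 214 to 231 CPM in WT, a log2 fold change of -2.97 ± 0.091 (SE, n = 3 per genotype, edgeR q = 9.6e-06).

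C/EBP proteins carry a basic region that contacts DNA and a leucine zipper through which they pair with each other and with other zipper proteins such as ATF4. C/EBPα slows division and drives differentiation of hepatocytes, fat cells and granulocytes, whereas C/EBPβ and C/EBPδ are induced by cytokines and stress and switch on acute phase genes, in intestinal epithelium as well as in liver. C/EBPγ lacks the usual activation domain and mainly acts as a partner in heterodimers, and C/EBPε is a factor of late granulocyte development. CEBPA and CEBPB make long and short proteins from different start codons of 1 transcript, which RNA counts cannot separate.

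Per kilobase of transcript CEBPB was the most abundant of the family in every library, and its level was higher in the LSD1 KO library of every replicate pair. CEBPD was lower in every pair, CEBPA and CEBPG were lower by smaller amounts, and CEBPE was not detected. The members were chosen by these same WT and LSD1 KO levels, seen in earlier results, so their differences are given as a description, and a q value shows only where a gene fell in the fit over all 17672 genes tested. In that fit, edgeR's quasi-likelihood test with replicate number as a block, 1 of the 4 members tested had a q under 0.1, beside 1.60% of all genes tested (282 genes). By direction, 1.05% of genes were called higher and 0.549% lower in LSD1 KO. In bulk RNA, fewer cells making a transcript and less transcript per cell cannot be told apart.

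CEBPB (ENSG00000172216.6) lies on chromosome 20, at 50190583 to 50192690 on the plus strand of GRCh38.p14. Its level was 58.3, 183 and 129 CPM in WT replicates 1, 2 and 3, and 103, 383 and 237 CPM in the matching LSD1 KO libraries. The groups overlapped, since WT replicates 2 and 3 stood above LSD1 KO replicate 1, but in each pair the KO library was the higher. The ratios of KO to WT were 1.76, 2.09 and 1.84 in pairs 1, 2 and 3. The fitted log2 fold change was 0.92 ± 0.091 (SE, n = 3 per genotype), or 1.89-fold, with an edgeR q of 0.0084, which ranked 13 by p among the 17672. Without the replicate block the log2 fold change was 0.96 ± 0.51 and the edgeR q was 0.999, in a fit that called 0.00566% of genes, so the call rests on comparing libraries within pairs.

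CEBPD (ENSG00000221869.5), on chromosome 8, moved the other way at a much lower level. It stood at 5.10, 9.35 and 5.80 CPM in WT replicates 1, 2 and 3 and at 2.86, 4.79 and 4.32 CPM in LSD1 KO. Every KO library was below every WT library, and the KO level was 0.561, 0.512 and 0.744 of the WT level in pairs 1, 2 and 3. The fitted log2 fold change was -0.74 ± 0.19 (SE, n = 3 per genotype) and missed the threshold, with an edgeR q of 0.159. The counts behind it were small, 135 to 247 in WT and 80 to 130 in LSD1 KO, and with every gene that had any count kept in the test the q was 0.0207.

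**Figure D1:**
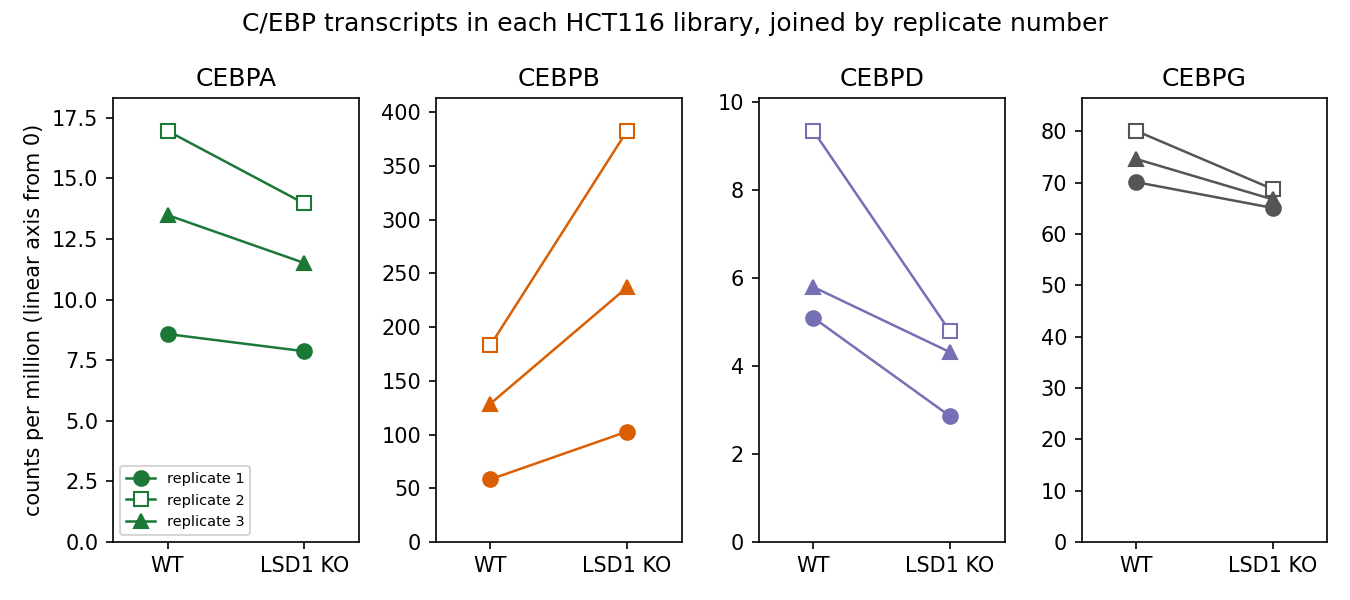
Level of each detected C/EBP transcript (CPM, linear axis from 0) in the 3 WT and 3 LSD1 KO libraries, with lines joining libraries of the same replicate number. All 3 CEBPB lines slope up and all 3 CEBPD lines slope down, while replicate 1 is lowest and replicate 2 highest in every panel and genotype.

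CEBPA (ENSG00000245848.3) lies on chromosome 19 at 33299934 to 33302534 on the minus strand. Its level was 8.58, 17.0 and 13.5 CPM in WT and 7.87, 13.96 and 11.5 CPM in LSD1 KO, replicates 1 to 3. The groups overlapped and the KO library was the lower in each pair, with a log2 fold change of -0.21 ± 0.13 (SE, n = 3 per genotype, edgeR q = 0.534). CEBPG (ENSG00000153879.9) follows on the same chromosome at 33373709 to 33382686, on the plus strand, 71175 bases from CEBPA. It stood at 70.1, 80.1 and 74.6 CPM in WT and 65.0, 68.7 and 66.7 CPM in LSD1 KO. Every KO library was below every WT library, yet the shift was small, a log2 fold change of -0.16 ± 0.086 (SE, n = 3 per genotype, edgeR q = 0.465). CEBPE (ENSG00000092067.6), on chromosome 14 at 23117306 to 23119255, had 0 counts in all 6 libraries. A count of 0 allows up to 3 counts, which is 0.0994 to 0.114 CPM at the depth of these libraries, and covers counting error only.

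**Figure D2:**
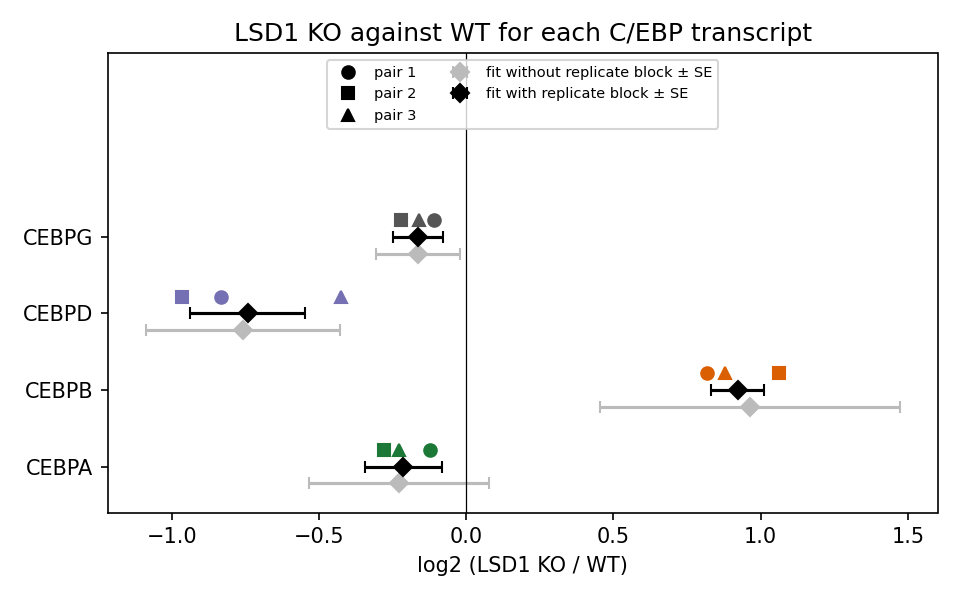
Log2 ratio of LSD1 KO to WT for the 4 detected members: coloured symbols are the 3 replicate pairs, black diamonds the fit with the replicate block and grey diamonds the fit without it, each with its SE. The pairs lie close together for CEBPB (0.82 to 1.06), and leaving out the block widens its SE from 0.091 to 0.51.

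Promoter sequence is shown for CEBPA, CEBPB and CEBPG, to set what lies at their start sites beside their levels. RefSeq windows on GRCh38.p14 ran from 250 bases before to 50 after an annotated start and covered CEBPA, CEBPB, CEBPE and CEBPG in 6 windows, CEBPB and CEBPG having 2 each. The promoter of CEBPD was not analysed here. Letters were searched on both strands in these and in all 35116 windows of the set. TATAAA, the TATA box, stood 29 bases before the second CEBPB start and 30 bases before the CEBPA start, and 11.5% of all windows held it. TGACG, the first part of a cyclic AMP response element, stood 57 bases before the second CEBPB start, and 24.6% of all windows held it. TGATGCAA, a joint site for ATF4 and a C/EBP protein, stood 42 bases before the second CEBPG start, inside the gene as read from the first start, and 0.866% of all windows held it. In the stretches below, written 5′ to 3′ on the strand of the gene, capitals mark these letters.
CEBPB TATA box, chr20:50190789-50190818, plus strand: acgggccgccctTATAAAtaaccgggctca
CEBPB TGACG, chr20:50190760-50190789, plus strand: ggaggggccggcgTGACGcagcggttgcta
CEBPA TATA box, chr19:33302547-33302576, minus strand: cggcctgccgggTATAAAagctgggccggc
CEBPG joint site, chr19:33374060-33374089, plus strand: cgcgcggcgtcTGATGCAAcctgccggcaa
The joint site overlapped no match of another motif searched. The C/EBP consensus letters TTGCNNAA were in none of the 6 windows and in 10.5% of all windows, and the full cyclic AMP element TGACGTCA was in none of the 6 and in 1.85%. A STAT site, TTCNNNGAA, and an AP-1 site, TGANTCA, were each found in the CEBPE window alone, against 7.66% and 7.71% of all windows. CCAAT boxes (CCAAT, 34.6% of all windows) stood 85 and 24 bases before the first CEBPG start, and 1 at the first CEBPB start. A match is only a run of letters, and it does not show binding.

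Compared per kilobase of the canonical transcript, the order of levels in WT was CEBPB, CEBPG, then CEBPD and CEBPA together. CEBPB stood at 67.1 ± 34.1 CPM per kb in WT and 131 ± 76.2 in LSD1 KO (SD, n = 3 each). CEBPG stood at 20.1 ± 1.34 and 17.9 ± 0.491 CPM per kb, below every CEBPB library of the same genotype. CEBPA (5.00 ± 1.62 and 4.27 ± 1.18) and CEBPD (5.39 ± 1.82 and 3.19 ± 0.803) overlapped in both genotypes. As a share of the summed family level, CEBPB made up 54.8%, 73.8% and 70.1% in WT replicates 1 to 3 and 71.1%, 88.3% and 83.3% in LSD1 KO. The share of CEBPD was 4.64% to 7.04% in WT and 1.62% to 2.91% in LSD1 KO. That of CEBPG went from 15.9% to 32.5% in WT to 7.81% to 22.2% in LSD1 KO, with overlap.

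**Figure D3:**
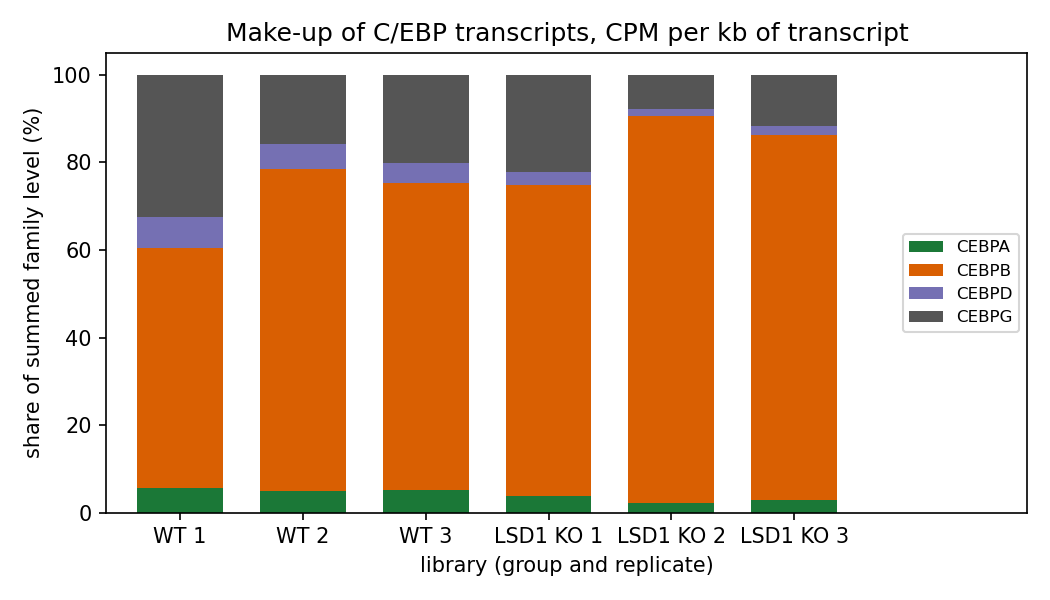
Share (%) of each detected member in the summed C/EBP level, in CPM per kilobase of canonical transcript, for each library. CEBPB takes the largest part of every bar, from 54.8% in WT replicate 1 to 88.3% in LSD1 KO replicate 2.

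Ratios of counts within a library do not depend on how libraries are scaled. They restate the differences of the members, which were chosen by these levels, and are given as a description. CEBPB outnumbered CEBPD by 11.4, 19.6 and 22.2 to 1 in WT replicates 1 to 3 and by 35.9, 79.9 and 54.9 to 1 in LSD1 KO. These groups did not overlap, and the ratio was 2.47 to 4.08 times higher in KO across the pairs. CEBPB over CEBPA was 6.80 to 10.8 in WT and 13.1 to 27.4 in LSD1 KO, again without overlap. CEBPB over CEBPG, at 0.832 to 2.29 in WT and 1.58 to 5.57 in LSD1 KO, did overlap. Within pairs 1, 2 and 3 it was 1.90, 2.43 and 2.06 times higher in KO.

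Replicates of one genotype differed more for CEBPB than the genotypes did. Its highest library was 3.14 times its lowest in WT and 3.72 times in LSD1 KO, against a median of 1.42 over the genes tested in each genotype. For CEBPA these ratios were 1.98 and 1.77, for CEBPD 1.83 and 1.67, and for CEBPG 1.14 and 1.06. All 4 members were lowest in replicate 1 and highest in replicate 2 in both genotypes, an order shared by 12.5% of genes tested. The libraries also differed by base composition: for each 10 points of GC content, log2 levels shifted by -0.17, 0.14 and 0.036 in WT replicates 1 to 3 and by -0.086, 0.10 and -0.023 in LSD1 KO. The transcripts of CEBPA, CEBPB and CEBPD are 65.9% to 66.2% GC and that of CEBPG 41.3%. Of 91 genes within 2 points of the GC content of CEBPB and within 2-fold of its level, 54.9% had the same order, 5 had a wider spread in WT and 2 in LSD1 KO. Among genes matched in the same way, the order was shared by 44.2% of 197 for CEBPA, 36.2% of 141 for CEBPD and 5.74% of 853 for CEBPG. With a correction for transcript length and GC content added to the paired fit, the CEBPB log2 fold change was 0.94 (edgeR q = 0.012) and that of CEBPD -0.74 (q = 0.144).

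Neighbouring genes on either side were read next. CEBPB-AS1, a transcript antisense to CEBPB and overlapping it, had 10 to 27 counts per library beside 1543 to 10391 for CEBPB. The library kit is not stated to keep strand, so reads of the pair cannot be told apart by strand. PELATON, a long noncoding RNA 74788 bases beyond CEBPB, had 10, 1 and 2 counts in WT replicates 1 to 3 and 44, 10 and 34 in LSD1 KO. It passed the test, with a log2 fold change of 2.88 ± 0.59 (SE, n = 3 per genotype, edgeR q = 0.0842). With so few WT counts, PELATON got past the filter on low counts through its LSD1 KO libraries, so this call is a description only. The value ranged from 2.33 without WT replicate 3 to 3.84 without WT replicate 1. The call was lost without the replicate block in edgeR (q = 0.999) and DESeq2 (q = 0.346), without WT replicate 3 (q = 0.324) and without LSD1 KO replicate 3 (q = 0.366). LINC01273, 13912 bases before CEBPB, had 5 to 33 counts in WT and 25 to 34 in LSD1 KO (edgeR q = 0.457).

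Around the other members no neighbour tested passed. CEBPA-DT, which starts 287 bases from CEBPA and is read away from it, had 38, 92 and 83 counts in WT replicates 1 to 3 and 53, 36 and 64 in LSD1 KO (edgeR q = 0.687). SLC7A10, an amino acid transporter gene on the other side of CEBPA, had 2 to 5 counts in WT and 0 in each KO library, and was left out of the test by the filter on low counts. PEPD, a peptidase gene beyond CEBPG, had a log2 fold change of -0.14 ± 0.095 (edgeR q = 0.591). SPIDR, 607 bases from CEBPD, was at 47.2 ± 3.30 CPM in WT and 46.3 ± 1.72 in LSD1 KO (SD, n = 3 each, edgeR q = 0.94). PRKDC, the DNA repair kinase gene on the other side of CEBPD, was at 805 ± 259 and 819 ± 277 CPM (edgeR q = 0.947). Beside CEBPE, the amino acid transporter gene SLC7A8 had a log2 fold change of 0.39 ± 0.21 (edgeR q = 0.48), which passed without WT replicate 2 (q = 0.0656) or LSD1 KO replicate 2 (q = 0.0581), and CIROP had at most 3 counts.

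Genes of C/EBP biology outside the family were read from 7 lists, of partners, inducing signals, protein modifiers and targets. The partner list held 13 leucine zipper proteins that pair with C/EBP proteins or belong to the same network of pairing proteins. Of these, 12 were tested and none passed edgeR's test at a q under 0.1, nor DESeq2's with the block. At an unadjusted p under 0.05 there was 1, a mark that 13.4% of all genes tested reached. ATF4, the amino acid stress factor that pairs with C/EBPβ and C/EBPγ, was at 375 ± 90.3 CPM in WT and 315 ± 26.8 in LSD1 KO (SD, n = 3 each, edgeR q = 0.391). CREB1, a factor that binds cyclic AMP elements, had a log2 fold change of -0.029 ± 0.11 (edgeR q = 0.938). DBP, a clock-controlled zipper factor, ranged from 18.8 to 81.8 CPM across the WT libraries and from 15.3 to 161 CPM across the KO libraries (edgeR q = 0.794). It was higher in KO in pair 2 only. The median log2 fold change of the list was -0.067, beside 0.0030 over all genes tested.

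The cytokines, receptors and relay proteins of the interleukin-6 family induce CEBPB and CEBPD through STAT3. Of 12, 10 were tested and none passed in edgeR (3 at an unadjusted p under 0.05), against 1 in DESeq2 with the block, and the list median was 0.20. IL6 itself had at most 2 counts and OSM at most 8. LIF, a cytokine of this family, was at 72.7 to 87.1 CPM in WT and 98.6 to 109 CPM in LSD1 KO, without overlap, and missed the threshold with a log2 fold change of 0.37 ± 0.10 (SE, n = 3 per genotype, edgeR q = 0.178). Without WT replicate 2 or without LSD1 KO replicate 2 LIF passed (q = 0.0274 and 0.0252). JAK1, the kinase that relays the signal, had a log2 fold change of 0.22 ± 0.087 (edgeR q = 0.313). OSMR, the oncostatin M receptor, had one of 0.099 ± 0.12 (edgeR q = 0.767).

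Among proteins that modify or destroy C/EBP factors, TRIB1 and TRIB2 rose in LSD1 KO. The Tribbles proteins TRIB1 and TRIB2 carry C/EBPα to the ubiquitin ligase COP1 for breakdown. TRIB1 was at 200.2, 249 and 231 CPM in WT replicates 1 to 3 and at 416, 380 and 462 CPM in LSD1 KO. The groups were far apart, with a log2 fold change of 0.89 ± 0.11 (SE, n = 3 per genotype, edgeR q = 0.0157). TRIB2 was at 14.1, 18.7 and 19.6 CPM in WT and 25.5, 31.5 and 34.4 CPM in LSD1 KO, also without overlap, with a log2 fold change of 0.81 ± 0.10 (edgeR q = 0.0181). They were 2 of the 12 genes of the list, all tested, beside 1.60% of all genes tested, and 4 of the 12 had an unadjusted p under 0.05. The other 10 did not pass, COP1, the ligase named above, among them at -0.077 ± 0.094 (edgeR q = 0.776). TRIB3, the third Tribbles gene, was lower in every pair, with a log2 fold change of -0.29 ± 0.088 (edgeR q = 0.214). Without the replicate block edgeR gave a q of 0.443 for TRIB1 and 0.682 for TRIB2, while DESeq2 without the block, which called 0.376% of its genes, gave 0.0067 and 0.216.

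Textbook targets of C/EBP factors in liver, fat and blood were mostly silent in these cells. Of 22 acute phase and inflammatory targets 7 were tested and none passed in edgeR (1 at an unadjusted p under 0.05) or in DESeq2 with the block, and 14 had fewer than 10 counts in every library. SERPINA1, the antitrypsin gene, was at 2.23 to 6.51 CPM in WT and 2.93 to 11.4 CPM in LSD1 KO (log2 fold change 0.57 ± 0.18, edgeR q = 0.234). CXCL8, a neutrophil chemokine, was at 2.34 to 3.94 CPM in WT and 1.502 to 11.8 CPM in LSD1 KO (edgeR q = 0.817). CFB, complement factor B, had a log2 fold change of 0.31 ± 0.25 (edgeR q = 0.631), and the list median was 0.31.

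Neither the metabolic nor the myeloid targets held a call in edgeR or in DESeq2 with the block, and 0 of either had an unadjusted p under 0.05. Of 15 metabolic targets 3 were tested, with a list median of 0.013. These were CPS1, the first enzyme of the urea cycle, at 44.8 ± 9.79 CPM in WT and 43.7 ± 7.01 in LSD1 KO, PPARG, the fat cell regulator, at 17.4 ± 0.962 and 18.6 ± 8.21, and PLIN1, a lipid droplet protein, under 1 CPM in both means (SD, n = 3 each). Of 13 myeloid targets 5 were tested, with a list median of 0.13. IL6R, the interleukin-6 receptor, had a log2 fold change of -0.093 ± 0.13 (edgeR q = 0.81). GFI1, a repressor known to recruit LSD1 in blood cells, had one of 0.13 ± 0.13 (edgeR q = 0.74), and LYZ, the lysozyme gene, one of 0.47 ± 0.34 (edgeR q = 0.597).

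**Figure D4:**
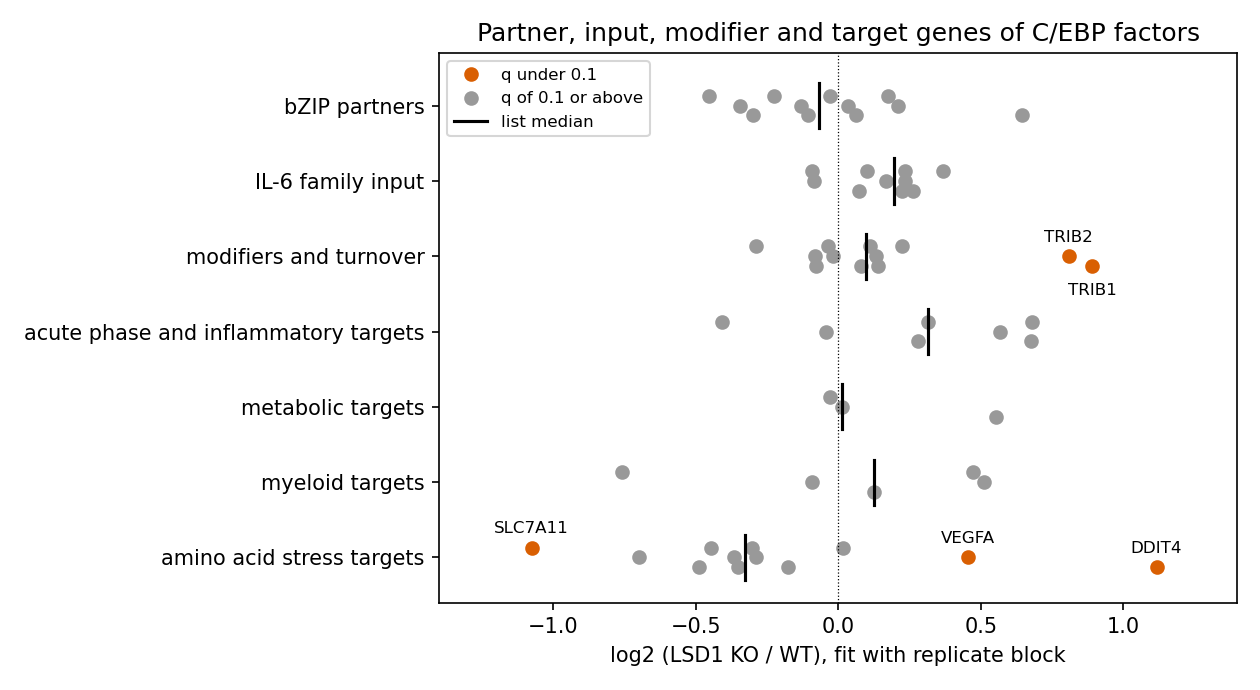
Log2 ratio of LSD1 KO to WT in the paired fit for every tested gene of 7 lists, with a bar at each list's median; orange marks an edgeR q under 0.1. Called genes appear in 2 lists: TRIB1 and TRIB2 among modifiers, and DDIT4, VEGFA and SLC7A11 among amino acid stress targets, whose median is -0.33.

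Targets shared with ATF4 in the response to amino acid shortage moved in both directions. All 12 were tested, 2 rose and 1 fell, beside 1.60% of all genes tested called in either direction, and the list median was -0.33. At an unadjusted p under 0.05 there were 9 of the 12. The balance of calls depended on the setting: 2 rose and 7 fell with every gene with counts kept, where 3.80% of all genes were called, and 2 rose and 4 fell in DESeq2 with the block, where 4.21% were. SLC7A11, the cystine transporter gene, fell from 141, 75.9 and 97.3 CPM in WT replicates 1 to 3 to 58.9, 43.0 and 44.2 CPM in LSD1 KO. Every KO library was below every WT library, with a log2 fold change of -1.08 ± 0.11 (SE, n = 3 per genotype, edgeR q = 0.0092). DDIT4, which restrains the growth kinase complex mTORC1, was at 55.4, 151 and 104 CPM in WT and 144, 287 and 217 CPM in LSD1 KO. Its groups overlapped, but every pair rose, with a log2 fold change of 1.12 ± 0.11 (edgeR q = 0.0078).

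VEGFA, the vascular growth factor gene, was at 53.4, 64.8 and 64.4 CPM in WT and 68.1, 94.6 and 88.8 CPM in LSD1 KO, with a log2 fold change of 0.45 ± 0.089 (SE, n = 3 per genotype, edgeR q = 0.0732). That call was lost without WT replicate 3 (q = 0.419) and without LSD1 KO replicate 3 (q = 0.361). ASNS, asparagine synthetase, was named after its values were seen: its log2 fold change of -0.44 ± 0.098 lay just outside the threshold (edgeR q = 0.104), and it was called in 9 of 14 alternatives, among them RLE scaling (q = 0.0945) and DESeq2 with the block (q = 0.0038). Without the replicate block edgeR called none of the 3 genes that passed, with a q of 0.587 for SLC7A11 and 0.999 for both DDIT4 and VEGFA.

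Marker genes were read to check the labelled cell type. Of 8 epithelial markers EPCAM, the keratins KRT8, KRT18 and KRT19, CDH1 and CDX2 were tested, whereas VIL1 had at most 8 counts and CDX1 had 0. Their summed level was 2044 to 3820 CPM in WT and 2421 to 3160 CPM in LSD1 KO. EPCAM, an epithelial adhesion protein, fell from 173 to 248 CPM in WT to 77.6 to 134 CPM in LSD1 KO (log2 fold change -0.98 ± 0.20, edgeR q = 0.0788). The other 5 tested did not pass and differed in direction: KRT19 had a log2 fold change of 0.45 ± 0.11 and was higher in every pair (edgeR q = 0.123), KRT18 one of -0.47 ± 0.15 (q = 0.23) and CDH1 one of -0.34 ± 0.10 (q = 0.196), both lower in every pair, KRT8 one of -0.15 ± 0.12 (q = 0.645) and CDX2 one of 0.013 ± 0.12 (q = 0.978). Of 11 markers of fibroblasts, endothelium and blood, 10 were matched, 8 of them had fewer than 10 counts in every library, and CD3E and HBB had 0. Their summed level was 21.0 to 24.9 CPM in WT and 30.8 to 35.6 in LSD1 KO, nearly all of it COL1A1, a collagen gene, which rose with a log2 fold change of 0.52 ± 0.098 (edgeR q = 0.0628). The COL1A1 call was lost without WT replicate 1 (q = 0.101), WT replicate 3 (q = 0.388) or LSD1 KO replicate 3 (q = 0.338), and without the block in both edgeR (q = 0.999) and DESeq2 (q = 1.00). EPCAM lost its call in edgeR without the block (q = 0.668) and in DESeq2 with the block (q = 0.162), and kept it in DESeq2 without the block (q = 0.0508). COL1A2, COL3A1 and DCN, which define fibroblasts with it, had at most 3 counts. The part of EPCAM and COL1A1 in the C/EBP differences was not tested.

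For each detected member, the 3 genes of at least 1 CPM most like it in log2 CPM over the 6 libraries were found among 14799, as a description, since all levels in a library share its depth and its shift with GC content. They were AKIRIN2, UBE2E2 and P3H1 for CEBPB (Pearson r = 0.999 to 0.997) and MILIP, ZIC5 and MEX3D for CEBPA (0.996 to 0.994). For CEBPD they were C11orf24, BACE2 and CDK8 (0.982 to 0.977), and for CEBPG they were SP6, PLD6 and POLE4 (0.997 to 0.985).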

How the data were processed

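Values are estimated counts per gene for 6 libraries, as deposited. Per the methods and notes of the study, the authors checked reads with FastQC, trimmed them with Trimmomatic 0.39 and estimated these expected counts with Salmon 1.4.0 on the GENCODE transcriptome of GRCh38.p13, rounded and not scaled. The step from transcripts to genes is not given in the sources used here. Of 60240 genes, 58395 were matched to a symbol.

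Counts were scaled by TMM, filtered with filterByExpr and tested with edgeR 4.0.16 (R 4.3.3), replicate number as a block, q under 0.1 over 17672 genes. The test was checked on simulated data. CPM are TMM-scaled. The files held GRCh38 genes; transcript lengths and GC content came from GENCODE on GRCh37, and gene positions, neighbours and promoters from RefSeq on GRCh38.p14, which shares its chromosome coordinates with GRCh38.p13. The CEBPD promoter was not analysed here.

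Numbers pair the libraries: after removing genotype means, same-numbered WT and LSD1 KO libraries correlated at 0.553, 0.553 and 0.404 over 17672 genes, other pairs at -0.516 to 0.045. No source says what a number marks.

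Members, lists and tests were chosen with earlier results of these data known. Genes named were the 5 members, KDM1A, every list gene with a q under 0.1 or else the 3 most abundant of the list, marker genes, the nearest named neighbours, and the 3 genes most correlated with each detected member. Outside this rule, ASNS, COP1, TRIB3, IL6 and OSM were named after their values were seen. Alternatives were no block, DESeq2 1.42.0 (the tool of the study) with and without it, RLE scaling, 2 other count filters, q under 0.05 and leaving out each library, and, chosen after seeing the data, a length and GC correction.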

Additional observations from a re-analysis of the deposited data

How the results depend on the processing

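Without the replicate block edgeR called 1 gene in place of 282 (552 at an unadjusted p under 0.05) and DESeq2 called 95. DESeq2 with the block called 597, the test on every gene with counts 1285, and a q under 0.05 left 143. Leaving out 1 library gave 172 to 1079 calls: 172 without WT replicate 3, 209 without LSD1 KO replicate 3, 510 and 552 without replicate 1 of WT and LSD1 KO, and 1065 and 1079 without replicate 2. For CEBPB the log2 fold change stayed between 0.83 and 0.97 under all 14 alternatives and was called in 12 of them. The exceptions were edgeR (0.96, q = 0.999) and DESeq2 (0.96, q = 1.00) without the pairing. CEBPD stayed between -0.90 and -0.64 and was called only with every gene with counts kept (-0.74, q = 0.0207). CEBPA (-0.26 to -0.18) and CEBPG (-0.19 to -0.15) were never called. Of the list genes, modifiers had 0 calls without the block in edgeR and 1 in DESeq2. Amino acid stress targets had 0 without the block in edgeR and 1 in DESeq2, 6 in DESeq2 with it, 9 with every gene kept, 5 with at least 10 counts in every library, 5 after the length and GC correction, and 2 to 6 with a library left out. Partners had 1 call with every gene kept and 0 to 1 with a library left out, and the interleukin-6 family had 1 with every gene kept, 1 in DESeq2 with the block and 0 to 1 with a library left out. Among genes that were not called, leaving out a library turned the sign of CEBPA-DT (-0.77 to 0.070), CEBPB-AS1 (-0.53 to 0.28), CPS1 (-0.10 to 0.0023), CREB1 (-0.16 to 0.054), CXCL8 (-0.50 to 0.69), DBP (-0.28 to 0.38), OSMR (-0.079 to 0.19), PLIN1 (-0.039 to 1.05), PPARG (-0.33 to 0.19) and SPIDR (-0.10 to 0.054), and the length and GC correction that of PRKDC (-0.028). Of the called genes named here, each kept its sign under the alternatives run on it. CEBPD rested on 80 to 247 counts a library. With 3 libraries against 3, an exact unpaired test of 1 value cannot go below p = 0.1. An exact test that kept the pairs would have a higher floor.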
